A study of Mus musculus with 119 samples.

Results

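Muscle stem cells (satellite cells) sorted from resting skeletal muscle of adult wild-type mice were split by the level of the surface protein CD34, and the CD34Lo gate was compared with the CD34Hi gate by RNA-seq. The libraries were taken by their labels: the 4 adult CD34Lo and 3 adult CD34Hi libraries of the second of the 13 experiments, which are 7 of the 119 samples of the series and 7 of the 15 of that experiment. The series deals with FoxO transcription factors and the quiescent state of muscle stem cells. The other 8 libraries of the experiment, 4 CD34Hi and 4 CD34Lo from young wild-type mice, entered the same model and gave the gate difference at another age. All 15 came from uninjured muscle of animals with the WT genotype and no treatment, and RNA was taken straight after the sort, without culture. The age tag reads Adult and gives no months, whereas the title of the count table says Old and the treatment text for these samples speaks of geriatric mice. The labels do not say whether libraries came from separate animals, so the p-values measure the spread between libraries, which may in part be technical.

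Satellite cells lie beneath the basal lamina of the muscle fibre, express the transcription factor Pax7, and leave quiescence to form myoblasts and then fibres. CD34 is a sialomucin of the cell surface, high on quiescent satellite cells and reduced as they activate. In the sort used here cells carrying CD45, CD31 or Sca-1 (leukocytes, endothelium and many fibroblast-like cells) were removed, and those bearing α7-integrin and CD34 were collected. Cells of the mesothelium, the epithelium that lines body cavities and covers organs, are known for mesothelin, uroplakins and simple-epithelium keratins.

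Library totals ran from 4912242 to 7586621 counts in adult CD34Hi and from 4157201 to 6952140 counts in adult CD34Lo, with 14089 to 15251 genes detected. Values are CPM, counts scaled to a library total of 1000000 after TMM normalization, differences are log2 of CD34Lo over CD34Hi with their standard error, and p-values are those of edgeR's quasi-likelihood test adjusted over the 12857 genes tested. Within CD34Hi the libraries correlated at 0.973 to 0.976 (log2 CPM across genes), and within CD34Lo at 0.932 to 0.962, replicate 4 being the least like the others. Replicate 4 of young CD34Lo also stood apart, at 0.855 to 0.868. Ribosomal protein genes took 8.73% of its counts, beside 2.70% to 3.12% in the other young CD34Lo libraries. It enters each young difference given below. Satellite cell markers were present throughout: the 10 markers summed to between 10562 and 10940 CPM in CD34Hi and between 6393 and 9195 CPM in CD34Lo, and 0 of 10 was called (2 at an unadjusted p under 0.05, and 1 by DESeq2, an alternative count test). The hemoglobin genes Hba-a1, Hba-a2, Hbb-bs and Hbb-bt were at 0 in all 7. Cd34, the gene of the sorted protein, was 308, 273 and 265 CPM in CD34Hi and 178, 164, 139 and 191 CPM in CD34Lo, so the gates did not overlap in the gene whose protein the sort used.

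The genes higher in adult CD34Lo included genes known from mesothelium and epithelium, complement genes, fibroblast and matrix genes, early-response genes and a few genes of muscle differentiation. In all, 327 genes were higher in CD34Lo (2.54% of those tested) and 61 were lower (0.474%), and in either direction 3.02% were called. The rises were large, with a median difference of 2.45 on the log2 scale and 206 of at least 4-fold. In 326 of the 327 the 4 CD34Lo libraries all lay above the 3 CD34Hi libraries, against 11% of all genes tested. The falls were smaller, with a median of -1.05, and in all 61 the gates did not overlap, against 10.1% of all genes. Leaving out replicate 4 of adult CD34Lo left 185 rises and 31 falls, leaving out replicate 1, 2 or 3 of adult CD34Hi left 140, 197 or 137 rises and 21, 31 or 19 falls, and leaving out replicate 2 of adult CD34Lo left 38 falls. Leaving out replicate 4 of young CD34Lo raised the counts to 624 and 337. That library is in neither group of this contrast and enters through the shared spread, the filter and the scaling.

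Rises and falls differed in how they related to the same gate difference in young mice. The median difference in young was 0.26 for the 327 rises and -0.82 for the 61 falls, beside 0.05 over all genes. Of the rises, 226 had the same sign in young and 10 were also called there, among them Actc1, Cd24a, Cpz, Iffo1, Klhl41, Myog, St8sia5, Tmem8c and Tnnt2. Of the falls, 60 of 61 had the same sign and 12 were also called: Actg1, Alpl, Arhgap20, Calcrl, Cd34, Cxcl5, Kcne4, Map1b, Neu2, Ryr3, Sh3pxd2b and Tspan7. These shared calls are 66.7% of the 15 rises and 80% of the 15 falls called in young, where 0.117% of genes passed in each direction. The test of the difference between the ages (adult gate difference minus young gate difference) was passed by 61 genes with the larger rise in adults (0.474%), all of them among the 327, and by 1 gene in the other direction (0.00778%).

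**Figure D1:**
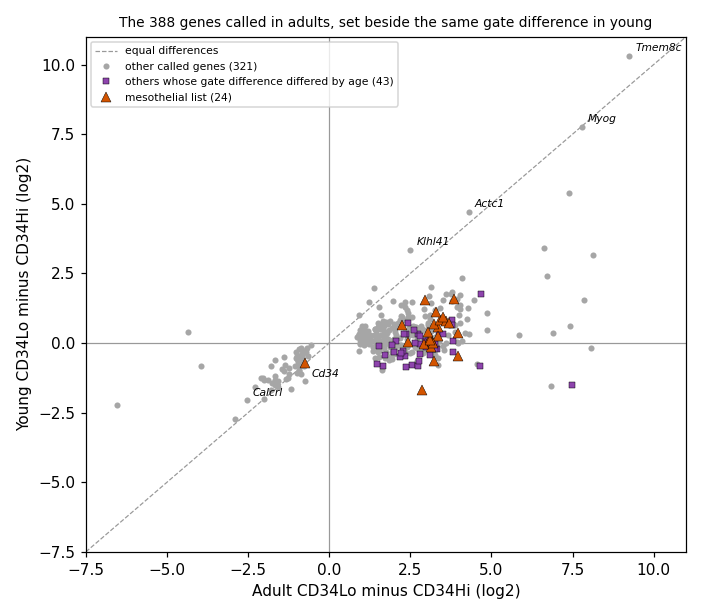
Each point is one of the 388 genes called in adults, with its adult CD34Lo minus CD34Hi difference (log2) on the horizontal axis and the young difference (log2) on the vertical axis; triangles are the 24 called genes of the mesothelial list and squares the 43 others whose gate difference differed by age. Most rises lie near 0 on the young axis (median 0.26), while Myog lies near the dashed line of equal differences, and some falls lie far from it, as Serpinb2 does (-6.53 and -2.24 in young).

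Most genes of the mesothelial list were higher in adult CD34Lo than in adult CD34Hi. The list has 36 genes, was drawn up after the values had been seen, and so describes the rise and does not test it. Of the 32 tested members 23 were higher, 1 was lower and 8 were not called, with a median difference of 3.11 beside 0.04 over all genes, and in young the median was 0.35 with 0 called by edgeR (12 at an unadjusted p under 0.05). The sum over the list was 4405, 4839 and 5215 CPM in CD34Hi, 10196, 11719, 11634 and 18251 CPM in CD34Lo, and 4322 to 6754 CPM in the 8 young libraries. Thus the 3 adult CD34Hi and the young libraries overlapped in this sum, and the 4 adult CD34Lo libraries stood above it, replicate 4 the most. The most abundant members in CD34Hi, Cd200, Pdpn and Sulf1, made up much of its sum and went the other way. Cd200 was 1284, 1452 and 1418 CPM in CD34Hi and 909, 954, 929 and 714 CPM in CD34Lo. Sulf1 was 823, 685 and 977 CPM against 654, 364, 633 and 390 CPM, and neither was called. CD34Lo lay wholly above CD34Hi for 27 tested members and wholly below for these 3. Without adult CD34Lo replicate 4, 21 members were higher, and over all settings 20 to 28. In bulk RNA a change in the share of cells of one type and a change in RNA per cell cannot be told apart, and the part that other cells in the gate had in these rises was not tested.

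Msln encodes mesothelin, a membrane-anchored glycoprotein of mesothelial cells (GRCm38 chr17:25748613-25754378, minus strand). Its level was 52.4, 67.5 and 63.6 CPM in CD34Hi and 446, 467, 424 and 769 CPM in CD34Lo. Every CD34Lo library exceeded the highest CD34Hi library several times, and the young libraries of both gates, at 56.8 to 131 CPM, were also below all 4, 7 of the 8 lying above the highest adult CD34Hi library. The difference was 3.11 ± 0.30 (adjusted p = 3.41e-05), and it exceeded that in young by 3.00 ± 0.38 (adjusted p = 0.00438). Upk3b, a uroplakin of the apical membrane (GRCm38 chr5:136038496-136046487, plus strand), was 40.9, 47.2 and 36.9 CPM against 265, 323, 267 and 515 CPM. The groups were again apart, with a difference of 3.04 ± 0.33 (adjusted p = 0.000122) that exceeded the young one by 2.63 (adjusted p = 0.00643). Its relative Upk1b went from 20.5 to 25.7 CPM to 191 to 391 CPM, a difference of 3.51.

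Keratins, which pair into the intermediate filaments of epithelia, were higher for 5 members of the list: Krt7, Krt8, Krt18 and Krt19 of simple epithelia and Krt14 of stratified epithelia. Krt8 was 18.4, 33.5 and 32.0 CPM in CD34Hi and 169.6, 231, 215 and 407 CPM in CD34Lo, with no overlap, a difference of 3.19 ± 0.42 (adjusted p = 0.000354) and 3.19 more than in young (adjusted p = 0.00817). Its usual partner Krt18 was 14.98, 20.8 and 20.9 CPM against 125, 173, 159 and 355 CPM, a difference of 3.43 ± 0.52 (adjusted p = 0.00128), and its excess over young, 2.59, did not pass (adjusted p = 0.109). In young CD34Lo Krt18 was 130 CPM in replicate 4 and 36.2 to 52.9 CPM in the other libraries. Krt7, Krt19 and Krt14 rose by 3.69, 3.61 and 3.36 in adults. All 5 keratins had their highest value in CD34Lo replicate 4 and their lowest CD34Lo value above every CD34Hi value.

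**Figure D2:**
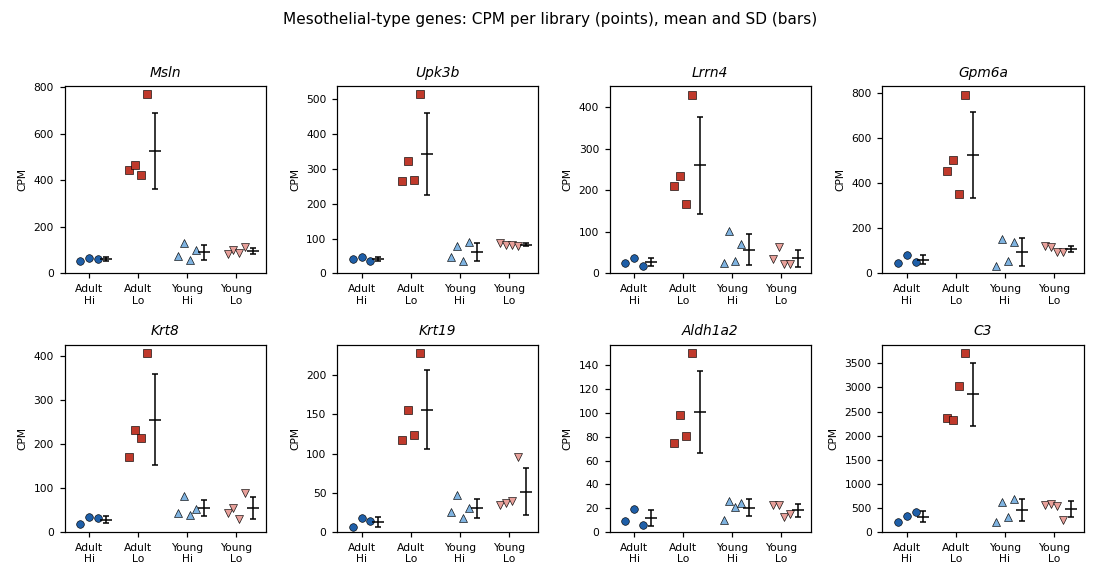
CPM of 8 genes of the mesothelial list in each library, by age and gate (Hi, CD34Hi; Lo, CD34Lo), with the group mean and SD as a bar beside the points. In each panel the 4 adult CD34Lo libraries lie above the 3 adult CD34Hi libraries, as for Msln, where the lowest CD34Lo library has 424 CPM.

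Lrrn4, a leucine-rich repeat membrane protein (GRCm38 chr2:132868305-132880891, minus strand), was 26.2, 37.7 and 19.2 CPM in CD34Hi and 212, 234, 167 and 431 CPM in CD34Lo. The difference was 3.23 ± 0.54 (adjusted p = 0.00247), while in young it was -0.66. Gpm6a, a neural and mesothelial membrane glycoprotein, was 46.9, 83.4 and 50.8 CPM against 453, 504, 352 and 794 CPM, a difference of 3.12. Both genes separated the adult gates completely. Aldh1a2, which makes retinoic acid from retinaldehyde, rose from 5.98 to 19.0 CPM to 74.7 to 150.1 CPM. Bnc1, a zinc finger protein of epithelia, rose from 0.854 to 3.81 CPM to 35.3 to 59.9 CPM, and Gata6, a transcription factor of mesoderm and endoderm derivatives, from 0.213 to 1.27 CPM to 6.07 to 28.0 CPM. Rspo1, a secreted amplifier of Wnt signalling, rose by 3.83 ± 0.48 (adjusted p = 0.000241), with its CD34Lo values at 37.6, 39.0, 31.2 and 79.5 CPM. Cldn15, a tight junction claudin, and Bcam, a laminin receptor, rose by 2.92 and 2.43, and both differed from young (adjusted p = 0.00594 and 0.00643). Anxa8, an annexin of epithelia, rose by 2.87 in adults and was -1.69 in young, so that the ages differed by 4.57 ± 0.62 (adjusted p = 0.00438).

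The adult call of each mesothelial gene named so far held whichever single library of the 15 was left out. The test between the ages was less steady: it was lost for Upk1b, Krt7, Krt14, Krt19, Gpm6a and Aldh1a2 without adult CD34Hi replicate 1 (adjusted p = 0.141, 0.0556, 0.062, 0.161, 0.156 and 0.0556) and for Lrrn4, Bnc1 and Gata6 without adult CD34Hi replicate 3 (adjusted p = 0.0668, 0.11 and 0.158). Msln, Upk3b, Krt8, Cldn15, Bcam and Anxa8 passed it in every omission. Among the others, 3 list members lost the adult call without a library: Slpi, a secreted protease inhibitor (3.29; adjusted p = 0.0916 without adult CD34Hi replicate 1), Nkain4 (2.94; 0.147 without adult CD34Hi replicate 3) and Igfbp6, a binder of insulin-like growth factor (2.25; 0.228 without adult CD34Hi replicate 3). In young CD34Lo replicate 4, Slpi, Nkain4 and Igfbp6 were at 1090, 133 and 1453 CPM, levels like those of adult CD34Lo. Their adult CD34Lo values were 744 to 2564, 67.3 to 148 and 476 to 1294 CPM. The other young CD34Lo libraries held 142 to 195, 13.2 to 22.0 and 216 to 274 CPM. Wt1, a transcription factor that marks embryonic and adult mesothelium, was 0.555, 1.43 and 4.70 CPM against 9.10, 12.5, 15.7 and 31.7 CPM and did not pass (adjusted p = 0.103), although the gates did not overlap. Pdpn, a mucin-type membrane protein found on mesothelium and other cells, was the 1 member called lower, at 1025 to 1259 CPM in CD34Hi and 642 to 745 CPM in CD34Lo, and its call was lost without adult CD34Hi replicate 3 (adjusted p = 0.157). Gata4 and Tm4sf5 were at 0 and Calb2 at or near 0 in the 7 adult libraries.

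Some genes of epithelial junctions were higher as well. On another list drawn up after the values were seen, 9 of 27 general epithelial genes passed the filter on low counts and 5 of these 9 were higher, with a sum of 261 to 310.1 CPM in CD34Hi and 787 to 1267 CPM in CD34Lo. Ezr encodes ezrin, which ties membrane proteins to actin, and was 89.4, 87.0 and 98.4 CPM in CD34Hi and 386, 358, 391 and 665 CPM in CD34Lo, a difference of 2.30 ± 0.27 (adjusted p = 0.000191). Cdh3, placental cadherin, was 4.02, 3.33 and 2.348 CPM against 24.6, 33.7, 27.3 and 31.7 CPM, a difference of 3.16. F11r, a junctional adhesion molecule, rose from 21.8 to 28.0 CPM to 96.9 to 255 CPM, and Lsr, a tricellular junction protein, from 2.08 to 7.29 CPM to 34.4 to 56.8 CPM. All 4 separated the gates, as did Spint2, a membrane-bound protease inhibitor (3.79). The age difference passed for Ezr, Cdh3 and F11r but not without adult CD34Hi replicate 1 for Ezr and F11r (adjusted p = 0.0567 and 0.093) or without adult CD34Hi replicate 3 for Cdh3 (adjusted p = 0.059).

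Among the called genes with the largest rises, chosen for a mean of at least 8 CPM and no overlap between the gates, few belong to muscle. Myog, described with the muscle genes, came first. Fam110c was 0.139, 1.59 and 0 CPM in CD34Hi and 8.93, 16.3, 16.4 and 30.2 CPM in CD34Lo, a difference of 4.87 ± 0.89 (adjusted p = 0.00507). Cpz, a secreted carboxypeptidase with a Frizzled-like domain, was 2.91, 2.70 and 1.71 CPM against 45.2, 68.8, 54.0 and 85.7 CPM, a difference of 4.67 ± 0.42 (adjusted p = 2.91e-05). Cpz was 1 of the 10 genes called higher in young too (1.75), and its adult rise was the larger by 2.92 (adjusted p = 0.0114, and 0.0595 without adult CD34Hi replicate 3). Pcsk6, a proprotein convertase, was 0.416, 0.951 and 0.213 CPM against 7.08, 16.5, 10.6 and 22.6 CPM, a difference of 4.66. In young it was -0.81, and the ages differed by 5.47 ± 0.78 (adjusted p = 0.00438). Bst1, an ADP-ribosyl cyclase of the cell surface, rose by 4.26, Fam84a by 4.03, Megf6 by 3.98 and the claudin Cldn10 by 4.10. Cldn10 was 29.2, 49.5, 43.4 and 99.9 CPM in adult CD34Lo and 73.1 CPM in young CD34Lo replicate 4.

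The remaining large rises, also chosen for no overlap between the gates, did not keep the call in every omission. Sfrp2, a secreted Wnt modulator, was 2.91, 2.85 and 4.05 CPM in CD34Hi and 45.2, 62.6, 28.5 and 155 CPM in CD34Lo (4.47; adjusted p = 0.0136, and 0.0944 without adult CD34Hi replicate 1). Vnn1, a pantetheinase, rose by 4.29 (adjusted p = 0.0102, and 0.0841 without adult CD34Hi replicate 1). Plxna4, a semaphorin receptor, Myrf, a membrane-bound transcription factor, Wfdc2, a secreted protein of epithelia, and Folr1, a folate receptor, rose by 4.31, 4.01, 4.03 and 4.04. Those 4 calls were lost without adult CD34Hi replicate 3 (adjusted p = 0.0522, 0.0742, 0.0944 and 0.0626). Their CD34Lo values were highest in replicate 4 for Sfrp2, Vnn1, Plxna4, Myrf, Wfdc2 and Folr1 alike. Folr1 was 11.4 to 20.0 CPM in adult CD34Lo and reached 21.9 CPM in young CD34Lo replicate 4.

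Complement genes, whose products tag and lyse targets in blood and tissue fluid, were in part higher in adult CD34Lo. Of 19 tested members 8 were higher and 0 lower, with a median of 1.59 in adults and 0.02 in young, and the sum was 3058 to 3409 CPM in CD34Hi and 7331 to 11708 CPM in CD34Lo. C3, the central component, was 209, 331 and 424 CPM in CD34Hi and 2367, 2334, 3036 and 3713 CPM in CD34Lo, a difference of 3.16 ± 0.43 (adjusted p = 0.000413). Cfb, factor B of the alternative pathway, was 72.2, 101 and 102 CPM against 735, 757, 892 and 1333 CPM, a difference of 3.34 ± 0.32 (adjusted p = 2.91e-05). C2, of the classical pathway, was 34.1, 56.4 and 47.2 CPM against 271, 354, 304 and 483 CPM, a difference of 2.94. In all 3 genes the lowest CD34Lo library was several times the highest CD34Hi library. The proteases C1s1 and C1ra rose by 2.00 and 1.71, and F3, tissue factor, the trigger of clotting, by 3.15. The age difference passed for Cfb, C2, C1s1 and C1ra in every omission (adjusted p = 0.00438, 0.00594, 0.00594 and 0.00594 with all libraries), and for C3 in all but the omission of adult CD34Hi replicate 1 (adjusted p = 0.0567). C3 and Cfb are also on the mesothelial list.

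Fibroblast and matrix genes rose in part. Of 30 tested genes of fibro-adipogenic cells 10 were higher and 0 lower (median 1.03, and -0.33 in young), 2 of them shared with the mesothelial list. Dpp4, a cell surface peptidase, was 22.5, 22.2 and 28.0 CPM in CD34Hi and 168, 128, 109.5 and 266 CPM in CD34Lo, a difference of 2.80 ± 0.37 (adjusted p = 0.000354). Clec3b, tetranectin, was 3.74, 6.18 and 5.98 CPM against 17.5, 40.9, 28.1 and 53.3 CPM, a difference of 2.72 ± 0.43 (adjusted p = 0.00155). Both differed from young (adjusted p = 0.00817 and 0.00643), as did Has1, a hyaluronan synthase (1.47 in adults, -0.74 in young, adjusted p = 0.00669). The defining receptor Pdgfra did not follow: it was 8.74, 9.04 and 9.18 CPM in CD34Hi and 3.37, 3.96, 4.84 and 34.6 CPM in CD34Lo, high in replicate 4 alone. Pi16, a progenitor marker, showed the same shape, at 6.52, 11.1 and 6.402 CPM and 6.07, 4.95, 5.24 and 50.4 CPM. Without replicate 4 the log2 differences, not called either way, turned from 0.36 to -1.14 for Pdgfra and from 1.03 to -0.56 for Pi16. Dcn, decorin, was 627, 1067 and 871 CPM and 1902, 3094, 2282 and 5911 CPM, and its call (adjusted p = 0.0374) was lost without adult CD34Hi replicate 1 (adjusted p = 0.206). The summed level of the 9 fibro-adipogenic markers was 1162 to 1673 CPM in CD34Hi and 2423 to 6900.4 CPM in CD34Lo, with 3 of 9 called, and its part in the other rises was not tested. Dcn made up most of that sum. Dpt, dermatopontin, the next most abundant marker, was 435, 443 and 389 CPM in CD34Hi and 256, 305, 265 and 255 CPM in CD34Lo, below it without overlap but not called (-0.64 ± 0.20, adjusted p = 0.102), and Lum was not called.

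Of 52 tested matrix proteins 8 were higher and 1 lower, with a median of 0.51 beside -0.27 in young. Efemp1, a fibulin, was 75.2, 117 and 111 CPM in CD34Hi and 653, 814, 705 and 1625 CPM in CD34Lo, a difference of 3.23 ± 0.38 (adjusted p = 0.000187). Eln, elastin, was 6.52, 2.38 and 4.48 CPM against 30.5, 27.6, 27.6 and 36.2 CPM, a difference of 2.76, and the elastic fibre proteins Fbln1 and Fbln5 rose by 2.26 and 1.93. Elastin, Efemp1, Fbln1 and Fbln5 all separated the adult gates. Their age difference passed with all libraries but was lost without adult CD34Hi replicate 1 for Efemp1 and Fbln1 (adjusted p = 0.093 and 0.164) and without adult CD34Hi replicate 3 for Eln and Fbln5 (adjusted p = 0.0672 and 0.0764). Fmod, fibromodulin, a collagen-binding proteoglycan of tendon, rose by 2.82 ± 0.51 (adjusted p = 0.00507). Vtn, vitronectin, was the 1 lower, at 183 to 215 CPM in CD34Hi and 85.7 to 117 CPM in CD34Lo (adjusted p = 0.011, and 0.0833 without adult CD34Hi replicate 1). Plau, the urokinase protease, was 189.7, 216 and 194 CPM against 107, 101, 114 and 127 CPM, and fell by the log2 difference -0.84 (adjusted p = 0.00919, and 0.0595 without adult CD34Hi replicate 2). Among 37 adhesion genes 5 were higher and 1, Cd34, lower. Cdh11, a mesenchymal cadherin, rose by 2.04 ± 0.36 (adjusted p = 0.0036), and Icam1, Itga3, Itgbl1 and Cd47 rose by 1.52, 2.33, 2.19 and 1.07, calls lost without adult CD34Hi replicate 1 (adjusted p = 0.0667, 0.0863 and 0.053) or replicate 3 for Cd47 (adjusted p = 0.169).

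**Figure D3:**
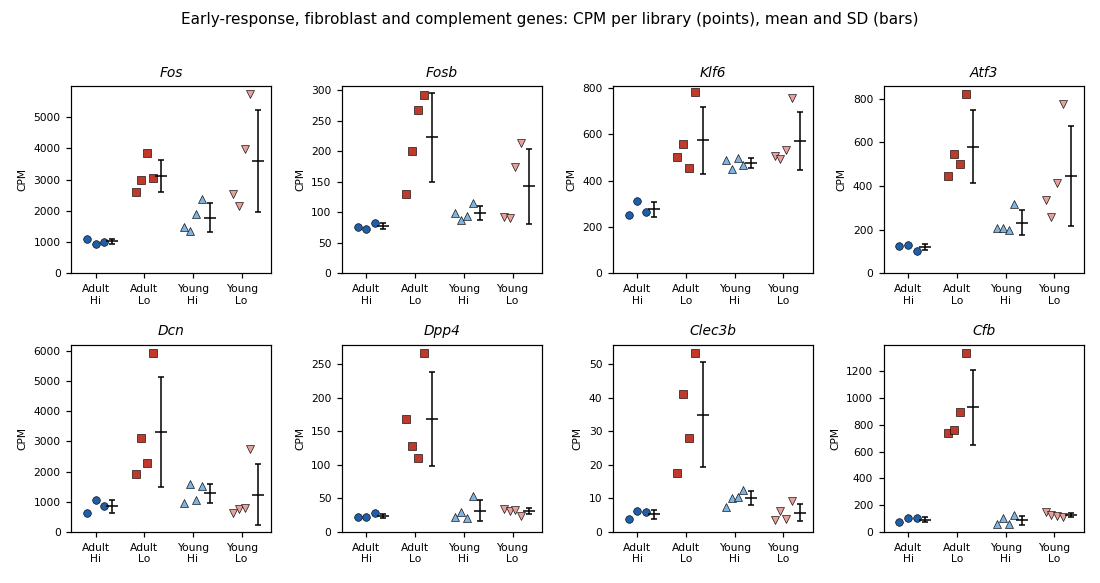
CPM in each library, by age and gate, of 4 early-response genes (Fos, Fosb, Klf6, Atf3), 3 fibroblast genes (Dcn, Dpp4, Clec3b) and the complement gene Cfb, with group mean and SD bars. Adult CD34Lo lies above adult CD34Hi in each panel, and for the fibroblast and complement genes above young CD34Lo too, except for Dcn, where the highest young CD34Lo library reaches 2744 CPM.

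Some genes of early muscle differentiation were higher in adult CD34Lo, and the median difference of their list was similar in both ages. The list, which includes Myod1, summed to 4507 to 5523 CPM in CD34Hi and 3101 to 4629 CPM in CD34Lo, so the gates overlapped in the sum. Of 36 tested commitment genes 6 were higher and 0 lower, with medians of 0.64 in adults and 0.61 in young, and 0 passed edgeR's test between ages (2 at an unadjusted p under 0.05, and 1 by DESeq2). The 150 bases before the RefSeq start of 3 of the 6 (build GRCm38.p6) are shown because these genes rose together. Capitals mark matches on either strand to the E-box CANNTG, bound by myogenic factors. They also mark the CArG box CCWWWWWWGG and the MEF2 motif YTAWWWWTAR, the sites of serum response factor and MEF2 proteins. W is A or T, Y is C or T and R is A or G, and only full matches are marked. Such windows hold an E-box in 47.7%, a CArG box in 0.916% and a MEF2 motif in 1.67% of the 32851 promoters of the table, and a match is only a description.
Myog, chr1:134289854-134290003, plus strand: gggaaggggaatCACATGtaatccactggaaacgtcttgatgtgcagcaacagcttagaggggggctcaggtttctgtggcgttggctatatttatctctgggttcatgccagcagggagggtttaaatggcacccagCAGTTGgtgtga
Actc1, chr2:114052876-114053025, minus strand: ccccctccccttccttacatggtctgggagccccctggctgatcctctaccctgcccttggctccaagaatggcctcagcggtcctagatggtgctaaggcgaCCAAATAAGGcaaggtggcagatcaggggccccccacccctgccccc
Klhl41, chr2:69669970-69670119, plus strand: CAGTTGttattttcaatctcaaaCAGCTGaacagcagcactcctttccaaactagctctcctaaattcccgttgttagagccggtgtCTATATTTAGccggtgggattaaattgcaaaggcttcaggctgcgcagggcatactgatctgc
Myog held E-boxes 138 and 12 bases before the start, and its stretch ctatatttat missed the MEF2 pattern at the last base only. Actc1 held a CArG box 47 bases before it, and Klhl41 had E-boxes at 150 and 127 bases and a MEF2 motif at 63.

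Myog encodes myogenin, the transcription factor that commits myoblasts to fuse. It was 0, 0.159 and 0.213 CPM in CD34Hi and 54.4, 28.2, 15.5 and 16.2 CPM in CD34Lo, so that it was near absent from one gate and present in all 4 libraries of the other. The difference was 7.78 ± 0.84 in adults (adjusted p = 0.000107) and 7.75 in young, and the 2 differed by 0.03 (adjusted p = 0.988). Young CD34Lo held more of it, at 81.6 to 103 CPM. Tmem8c, also named Mymk, encodes myomaker, the fusion protein of myoblasts, and was 0 in the 3 CD34Hi libraries and 16.5, 11.4, 8.74 and 9.77 CPM in CD34Lo (44 to 98 counts). Against a limit of 3 counts over the CD34Hi group it was at least 70.4-fold higher. Actc1, the cardiac and embryonic actin, was 0.693, 0.476 and 0 CPM against 13.99, 8.75, 4.70 and 7.55 CPM, a difference of 4.30 ± 0.75 (adjusted p = 0.0036), though reads of near-identical actin genes may be shared. Tnnt2, an embryonic troponin T, was 0 in CD34Hi and 2.87, 1.49, 2.15 and 6.44 CPM in CD34Lo, at least 19.6-fold higher. Klhl41, which stabilises sarcomere proteins, was 0.277, 0.793 and 0 CPM against 1.85, 2.64, 1.75 and 2.66 CPM (adjusted p = 0.0406, and 0.206 without adult CD34Hi replicate 1). Mef2c, which acts with myogenin, was 2.63, 2.70 and 2.13 CPM against 5.90, 9.25, 12.9 and 11.8 CPM (adjusted p = 0.0157, and 0.0942 without adult CD34Hi replicate 3), and in young it was -0.26. Its group mean was 9.95 CPM in adult CD34Lo, 9.83 CPM in young CD34Hi and 8.25 CPM in young CD34Lo. Adult CD34Hi, at 2.49 CPM, was thus the low group.

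Not all commitment markers rose. Chrna1 was 76.4, 51.1 and 59.8 CPM in CD34Hi and 109, 68.2, 67.5 and 52.4 CPM in CD34Lo, overlapping and not called. Myh3 was at or near 0 in the adult libraries. The 6 called commitment genes did not all have their highest value in the same library. Among the 4 CD34Lo libraries Myog, Tmem8c and Actc1 were highest in replicate 1, Mef2c in replicate 3, and Tnnt2 and Klhl41 in replicate 4, whereas the mesothelial sum was lowest in replicate 1 and highest in replicate 4. Of mature fibre genes, 2 of 29 tested were higher: Acta1, skeletal actin, at 16.6, 15.4 and 15.8 CPM against 81.6, 37.0, 51.2 and 78.4 CPM (adjusted p = 0.00706, and 0.0519 without adult CD34Hi replicate 3), and Fbxo32, atrogin-1, a ubiquitin ligase of muscle wasting (1.38; adjusted p = 0.0171, and 0.11 without adult CD34Hi replicate 2). The group mean of Acta1 was 15.9 CPM in adult CD34Hi, 62.0 CPM in adult CD34Lo, 67.6 CPM in young CD34Hi and 194 CPM in young CD34Lo. Ckm, Myh4, Myh1, Tnnt3 and Mb did not pass.

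**Figure D4:**
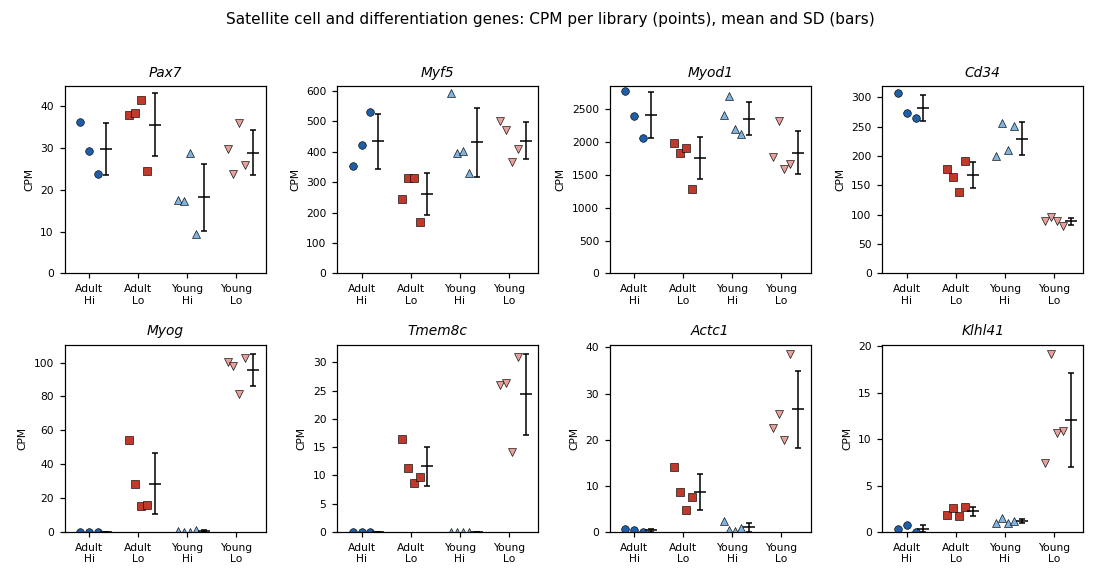
CPM in each library, by age and gate, of 4 satellite cell genes (Pax7, Myf5, Myod1, Cd34) and 4 differentiation genes (Myog, Tmem8c, Actc1, Klhl41), with group mean and SD bars. Myog, Tmem8c and Actc1 are near 0 in both CD34Hi groups and present in both CD34Lo groups, while the Pax7 ranges of the adult gates overlap.

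Among genes of satellite cell identity and quiescence the share called was near that of all genes. Of 40 tested genes on the satellite and quiescence list 0 were higher and 1, Cd34, was lower (adjusted p = 0.0244, and 0.144 without adult CD34Hi replicate 1), that is 1 of 40 beside 3.02% of all genes in either direction, with a median of -0.03. Pax7, the identity factor, was 36.2, 29.2 and 23.7 CPM in CD34Hi and 37.8, 38.3, 41.4 and 24.4 CPM in CD34Lo, and the gates overlapped (0.26 ± 0.31, adjusted p = 0.791). Myf5, a myogenic factor, was 352, 421 and 531 CPM against 246, 315, 314 and 170.5 CPM (-0.73 ± 0.25, adjusted p = 0.141), and Myod1, the factor of activated myoblasts, was 2767, 2383 and 2059 CPM against 1982, 1828, 1905 and 1280.0 CPM (-0.46 ± 0.19, adjusted p = 0.252). All CD34Lo values of Myf5 and Myod1 lay below those of CD34Hi, as for 10.1% of all genes, without passing the test. Vcam1, an adhesion receptor of satellite cells, was 5585 to 5983 CPM against 3372 to 4185 CPM (adjusted p = 0.0739). Calcr, Itga7, Cdh15, Megf10, Fgfr4, Sdc4 and Chrdl2 overlapped between the gates. Summed over the list the level was 27017 to 29133 CPM in CD34Hi and 16879.6 to 22395 CPM in CD34Lo, lowest in replicate 4.

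Genes of the immediate early response, which rise within minutes of stress or mitogens and also when cells are isolated, were higher in part. Of 54 tested 9 were higher (Fos, Fosb, Jun, Atf3, Klf6, Klf10, Dusp6, Socs3 and Irf1) and 0 lower, with a median of 0.46 in adults and 0.03 in young, and 0 passed edgeR's test between ages (12 at an unadjusted p under 0.05, and 0 by DESeq2). The number called ran from 2 to 18 over the settings tried. The list summed to 25591.5 to 30953 CPM in adult CD34Hi and 30290 to 31398.5 CPM in adult CD34Lo. In young it was 32507.5 to 34920 CPM in CD34Hi and 30882 to 39022 CPM in CD34Lo. For Fos, Klf6 and Irf1 adult CD34Hi had the lowest group mean, at 1030, 277 and 70.3 CPM. Their means were 3127, 574 and 168 CPM in adult CD34Lo, 1776, 477 and 138 CPM in young CD34Hi, and 3601, 572 and 147 CPM in young CD34Lo. The 150 bases before the RefSeq start are shown for 3 transcription factors of the group. Capitals mark TGACG, the core of the cyclic AMP response element, on either strand, which 13.3% of the table's promoter windows hold. The AP-1 motif TGANTCA, held by 4.24%, was also searched on both strands and had no match in the 3 windows.
Fos, chr12:85473740-85473889, plus strand: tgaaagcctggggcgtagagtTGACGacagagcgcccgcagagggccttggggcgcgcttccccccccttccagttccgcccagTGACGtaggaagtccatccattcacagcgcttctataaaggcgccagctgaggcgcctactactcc
Fosb, chr7:19310046-19310195, minus strand: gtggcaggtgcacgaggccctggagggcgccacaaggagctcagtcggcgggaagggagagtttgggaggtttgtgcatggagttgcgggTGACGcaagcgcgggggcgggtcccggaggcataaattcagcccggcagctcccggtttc
Atf3, chr1:191183334-191183483, minus strand: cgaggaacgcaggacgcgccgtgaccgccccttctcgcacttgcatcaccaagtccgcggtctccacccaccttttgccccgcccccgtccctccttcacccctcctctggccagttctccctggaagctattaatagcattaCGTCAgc
Fos held the core 129 and 66 bases before the start, Fosb at 60 bases and Atf3 at 7.

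Atf3, a stress-induced transcription factor, was 127, 132 and 105 CPM in CD34Hi and 448, 547, 502 and 822 CPM in CD34Lo. Fos, a subunit of AP-1, was 1117, 956 and 1019 CPM against 2619, 2986, 3848 and 3055 CPM. Fosb, another subunit, was 76.3, 73.2 and 82.6 CPM against 130.0, 201, 268 and 292 CPM. In these 3 genes every CD34Lo library lay above every CD34Hi library, with differences of 2.26 ± 0.34, 1.60 ± 0.30 and 1.53 ± 0.32 (adjusted p = 0.00128, 0.00531 and 0.0128). The Atf3 and Fos calls held in every omission, and that of Fosb was lost without adult CD34Hi replicate 1 (adjusted p = 0.0804). Klf6, a zinc finger factor, and Irf1, an interferon-responsive factor, rose by 1.05 and 1.25, calls lost without the same library (adjusted p = 0.0818 and 0.0771). Dusp6, a phosphatase that restrains ERK, was 57.4, 60.6 and 65.5 CPM against 127, 119.5, 117 and 185 CPM, with replicate 4 highest (adjusted p = 0.0171, and 0.101 without adult CD34Hi replicate 1). Of 21 heat shock genes 1 was higher, the small chaperone Hspb8 (2.12; adjusted p = 0.0178, and 0.102 without adult CD34Hi replicate 2).

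Chemokines moved in both directions. Of 29 tested genes of the cytokine list 3 were higher and 1, Cxcl5, was lower, and the chemokines Cxcl3 and Cxcl13, which are not on the list, were also called lower. Cxcl10, an interferon-induced chemokine, was 34.8, 59.8 and 46.3 CPM in CD34Hi and 138, 212, 176 and 350.3 CPM in CD34Lo (2.22; adjusted p = 0.00782, and 0.0743 without adult CD34Hi replicate 1). Csf3, a granulocyte growth factor, and the membrane-bound chemokine Cxcl16 rose by 2.00 and 1.28 (adjusted p = 0.0139 and 0.0205), losing the call without adult CD34Hi replicate 1 and replicate 3 (adjusted p = 0.0831 and 0.132). Cxcl5, a neutrophil attractant (GRCm38 chr5:90759360-90761624, plus strand), went the other way: it was 1509, 2587 and 2210.1 CPM in CD34Hi and 484, 917, 565 and 659.8 CPM in CD34Lo. Its fall of -1.68 ± 0.26 (adjusted p = 0.00155) stood beside -1.52 in young. Its relative Cxcl3 was 1436, 1705 and 1495 CPM against 386, 549.6, 423 and 423 CPM, with all 4 CD34Lo values below the lowest CD34Hi value (-1.79 ± 0.30, adjusted p = 0.00231). The log2 difference of Cxcl13, a B cell attractant named after its values were seen, was -2.91, and -2.71 in young.

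The falls described here are from the largest among called genes with a mean of at least 8 CPM over the adult libraries and no overlap between the gates. Larger log2 differences below that level, named after their values were seen, were those of Serpinb2 (-6.53), Zgrf1 (-4.35), Kcnk10 (-3.95) and Cxcl13 (-2.91), which in young were -2.24, 0.41, -0.82 and -2.71. Calcrl, the receptor of adrenomedullin and calcitonin gene-related peptide (GRCm38 chr2:84330626-84425411, minus strand), was 176, 196 and 204 CPM in CD34Hi and 45.0, 38.8, 29.2 and 19.1 CPM in CD34Lo. The gates were far apart, with a difference of -2.54 ± 0.41 (adjusted p = 0.00185) beside -2.06 in young (adjusted p = 0.0352). Neu2, a cytosolic sialidase of muscle (GRCm38 chr1:87509889-87597845, plus strand), was 568, 458 and 357 CPM against 144, 127, 116 and 74.8 CPM. Its difference of -1.996 ± 0.25 (adjusted p = 0.000244) nearly equalled that in young, -2.02, and the 2 differed by 0.03 ± 0.34 (adjusted p = 0.994). Alpl, tissue-nonspecific alkaline phosphatase, was 214, 186 and 163 CPM against 54.4, 61.1, 42.9 and 60.2 CPM (-1.78 ± 0.30, and -1.69 in young). Kcne4, a potassium channel subunit, was 183, 139 and 199.5 CPM against 72.3, 73.6, 43.5 and 40.8 CPM (-1.59 ± 0.26, and -1.59 in young). In all 4 genes the highest CD34Lo library was below the lowest CD34Hi library, and their adult calls held in every omission.

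Further falls concerned signalling molecules. Arhgap20 and Irak2, a kinase of interleukin-1 and Toll-like receptor signalling, fell by the log2 differences -1.68 and -1.89 (adjusted p = 0.00188 and 0.00796). Csf2rb and Csf2rb2, receptor subunits for interleukin-3 and its relatives, were 18.9 to 24.8 and 60.3 to 70.0 CPM in CD34Hi and 3.03 to 10.2 and 11.5 to 25.8 CPM in CD34Lo. These are near-identical copies, so reads may have been split between them, and the Csf2rb2 call was lost without adult CD34Hi replicate 3 (adjusted p = 0.0944). Gal, the neuropeptide galanin, was 5363, 4147 and 4390.1 CPM against 1579, 1662, 1533 and 1095 CPM (-1.66 ± 0.37; adjusted p = 0.02, and 0.104 without adult CD34Hi replicate 1). Grik3, a kainate receptor subunit, was 38.0, 43.6 and 42.9 CPM against 11.6, 9.41, 11.02 and 1.33 CPM (-2.29; adjusted p = 0.016, and 0.0664 without adult CD34Hi replicate 3). The transporters Slc16a3, for lactate, and Slc38a4, for amino acids, had differences of -1.62 and -1.68 (adjusted p = 0.00879 and 0.0462), with calls lost without adult CD34Hi replicate 1 and replicate 3 (adjusted p = 0.0606 and 0.213). None of these falls passed the test between ages.

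**Figure D5:**
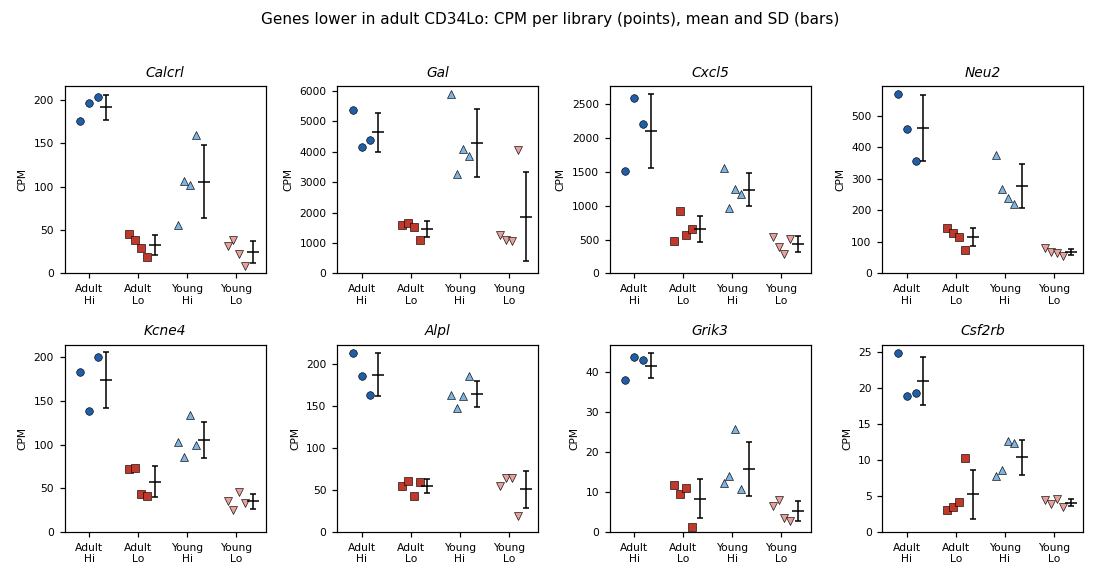
CPM in each library, by age and gate, of 8 genes that were lower in adult CD34Lo, with group mean and SD bars. In every panel the 4 adult CD34Lo libraries lie below the 3 adult CD34Hi libraries, and young CD34Lo means lie below young CD34Hi means, as for Calcrl (19.1 to 45.0 CPM against 176 to 204 CPM in adults).

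The single gene whose gate difference was lower in adults than in young was Cyp26a1, an enzyme that degrades retinoic acid (GRCm38 chr19:37697798-37701536, plus strand). It was 372, 303 and 276 CPM in adult CD34Hi and 224, 182, 213 and 154 CPM in adult CD34Lo, and in young it was 48.9 to 61.9 CPM in CD34Hi and 92.2 to 143 CPM in CD34Lo. It was thus lower in CD34Lo of adults without passing (-0.72 ± 0.20, adjusted p = 0.0723), and higher in CD34Lo of young (1.03, adjusted p = 0.0352). The ages differed by -1.74 ± 0.28 (adjusted p = 0.00654), in every omission. Another 3 named genes passed that test in the other direction outside the groups above. Tmem151a was 4.85, 3.81 and 0.854 CPM against 41.8, 38.8, 32.3 and 71.7 CPM in adults, with an excess over young of 3.74 (adjusted p = 0.0148). Adgrd1, an adhesion G protein-coupled receptor, and Ugt1a7c, a glucuronosyltransferase whose later exons are common to its gene cluster, had excesses of 3.36 and 3.52, lost without adult CD34Hi replicate 1 (adjusted p = 0.0857 and 0.0556).

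Several programmes showed no call or only 1 or 2, while 2.54% of all genes tested were called higher and 0.474% lower. In a list of 21 to 37 genes 1 call already exceeds the share called higher. Of 24 Notch, 33 TGF-beta and BMP, 34 cell cycle, 22 senescence and p53, 72 oxidative phosphorylation, 77 ribosomal protein and 24 glycolysis genes, 0 were called by edgeR and 8 by DESeq2, 4 of them in glycolysis. An unadjusted p under 0.05 was found for 1811 of all genes tested (14.1%), and for 6 of the 24 glycolysis, 5 of the 24 Notch, 6 of the 33 TGF-beta and BMP, 4 of the 22 senescence and p53, 3 of the 34 cell cycle, 0 of the 72 oxidative phosphorylation and 0 of the 77 ribosomal protein genes. The FoxO target list had 2 of 33 higher, Fbxo32 and Pik3ip1, an inhibitor of PI3 kinase (2.04; adjusted p = 0.0104, and 0.0763 without adult CD34Hi replicate 3). In Wnt signalling 2 of 21 were higher, Sfrp2 and Rspo1, both described above. Of 37 interferon genes 2 were higher, Irf1 and Oasl2, an antiviral protein (1.57; adjusted p = 0.0071, and 0.0694 without adult CD34Hi replicate 1). Unfolded protein response genes had 1 of 24 higher, Asns, asparagine synthetase (1.59; adjusted p = 0.0485, and 0.249 without adult CD34Hi replicate 1). Fatty acid and lipid genes had 1 of 31 higher, Acadm, a dehydrogenase of fatty acid oxidation (0.97; adjusted p = 0.0349, and 0.18 without adult CD34Hi replicate 1).

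The chosen markers of leukocytes, endothelium, pericytes and Schwann cells were not called, while some of fibro-adipogenic cells, given above, and 1 of tendon were. On the longer gene lists, 1 of 22 endothelial genes, Esam, was higher (1.54, adjusted p = 0.0304). Of 16 Schwann and neural genes 1, Mal, was lower (-1.39, adjusted p = 0.0257). The 6 leukocyte markers summed to 10.7 to 21.8 CPM in CD34Hi and 11.5 to 63.5 CPM in CD34Lo with 0 called (0 at an unadjusted p under 0.05 and 0 by DESeq2), and Ptprc, the gene of the CD45 used to exclude cells, was 0, 1.43 and 1.07 CPM against 0.169, 0, 0 and 5.33 CPM. The 6 endothelial markers summed to 209 to 236 CPM and 154 to 308 CPM, with 0 called (1 at an unadjusted p under 0.05 and 0 by DESeq2). Tek was the largest part of the CD34Hi sum, at 153, 133 and 155 CPM. In CD34Lo Tek was 115, 50.9, 76.6 and 41.5 CPM, lower without overlap. Pecam1, Cdh5, Kdr, Emcn and Cldn5 overlapped between the gates and were highest in CD34Lo replicate 4, so the sum joins members that moved differently. The 6 pericyte and smooth muscle markers summed to 144 to 162 CPM in CD34Hi and 202 to 334 CPM in CD34Lo, and the 5 Schwann cell markers to 11.5 to 19.5 CPM and 17.0 to 37.7 CPM, with 0 called in either (1 each at an unadjusted p under 0.05 and 0 by DESeq2). Most of the pericyte sum was Acta2, at 132, 124 and 112 CPM in CD34Hi and 304, 230, 157 and 163 CPM in CD34Lo. Its edgeR difference was 0.80 in adults (adjusted p = 0.153) and 1.67 in young (adjusted p = 0.00837). Rgs5, Myh11, Kcnj8, Pdgfrb and Cspg4 overlapped between the adult gates. Of the 6 tendon markers 5 were tested and 1, Fmod, was higher, at 26.2 to 108 CPM in CD34Hi and 327 to 665 CPM in CD34Lo. Ly6a, the gene of the excluded Sca-1, was 19.8, 48.7 and 38.2 CPM against 13.3, 38.3, 24.7 and 147 CPM, overlapping and highest in CD34Lo replicate 4. Without that library the log2 differences of these uncalled genes turned from 0.64 to -0.48 for Ly6a and from 0.66 to -3.55 for Ptprc. Replicate 4 was also highest in 2 list sums. The immune list summed to 84.9 to 112 CPM in CD34Hi and 62.2, 118, 144 and 833 CPM in CD34Lo. The endothelial list summed to 408 to 569 CPM in CD34Hi and 349, 527, 466 and 1357 CPM in CD34Lo.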

How the data were processed

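Cells from resting muscle were sorted on CD34, and RNA was amplified with a SMART-Seq v4 kit and made into libraries with Nextera XT, per the labels' protocols. Each deposited value is a whole-number read count per gene, not normalized by the authors, in 1 of the 10 deposited gene tables. The submitters' processing notes name bcl2fastq 2.17.1, Trim Galore, TopHat2 2.1.1, Partek 7.0, HTSeq and the mm10 build, without their order, and the counting settings were not stated there. SMART-Seq reads carry no strand, so reads of overlapping genes cannot be told apart.

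All 15 libraries of the experiment entered 1 fit in edgeR 4.0.16 (R 4.3.3), with TMM scaling, filterByExpr (minimum count 10, minimum total 15, leaving 12857 of 24421 genes), a coefficient per group and the quasi-likelihood F-test. Contrasts were CD34Lo minus CD34Hi in adults, in young, and their difference, each adjusted by Benjamini-Hochberg over all genes tested, with 0.05 as threshold. The standard error is the log2 difference over the root of F, an approximation that is poor for genes near 0 counts in a group. DESeq2 1.42.0 was an alternative, and the fit was tested on simulated counts. Counting error is part of each CPM, and library totals of 4157201 to 8910365 counts set its precision. Named with values are Cd34, Pax7, Myf5, Myod1 and Myog, the 14 largest rises and 14 largest falls among called genes of at least 8 CPM without overlap, up to 6 called members of each gene list each way (or the 2 most abundant where none was called), the 8 largest age differences each way, and cell type markers; members of the mesothelial list were added after their values were seen. One gene called in both ages is not reported here. The members and lists were chosen with earlier results of these data known. No library pair within a group agreed within sampling noise (chi-square per degree of freedom at least 7.89). Promoters are RefSeq's (GRCm38.p6), which held 128 of the 183 named genes, and positions are GENCODE's. Figures were drawn with matplotlib 3.10.9.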

Additional observations from a re-analysis of the deposited data

Results flagged for a closer look

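In the adult CD34Lo group of 4, 19 named genes had 1 library far from the other 3 by Dixon's criterion, which chance meets in about 1 in 20 groups. The named genes tested were 183, and many were named for their values in these libraries, so the 19 cannot be set against that rate. In 15 of the 19 the library far from the others was replicate 4. It was highest for the mesothelial and epithelial genes Msln (769 CPM), Rspo1 (79.5 CPM), Efemp1 (1625 CPM) and Ezr (665 CPM), for the fibroblast genes Pdgfra (34.6 CPM), Pi16 (50.4 CPM) and Lum (144 CPM), and for the leukocyte genes Lyz2 (127 CPM), Ptprc (5.33 CPM) and Tyrobp (14.7 CPM). It was also highest for C1s1 (613 CPM), Adgrd1 (108 CPM), Dusp6 (185 CPM) and Csf2rb (10.2 CPM), and lowest for Aldoa (816 CPM). Replicate 1 was highest for Snw1 (171 CPM) and lowest for Rplp0 (1159 CPM), and replicate 3 was highest for Acadm (46.0 CPM) and Mkx (23.5 CPM).

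The gate difference differed between adults and young, by the interaction term, for 36 named genes, 35 with the larger difference in adults. Among mesothelial and epithelial genes the log2 excess in adults was 4.57 for Anxa8, 4.44 for Gata6, 3.89 for Lrrn4, 3.63 for Bnc1, 3.28 for Aldh1a2, 3.19 for Krt8, 3.15 for Cdh3, 3.12 for Krt14, 3.00 for Msln, 2.98 for Krt7, 2.95 for Gpm6a, 2.94 for Cldn15, 2.83 for Krt19, 2.65 for F11r, 2.63 for Upk3b, 2.57 for Upk1b, 2.54 for Efemp1, 2.40 for Bcam and 1.98 for Ezr. Among complement genes it was 3.07 for C3, 2.87 for C2, 2.78 for Cfb, 2.34 for C1s1 and 2.13 for C1ra. Fibroblast and matrix genes had excesses of 3.55 for Clec3b, 3.42 for Eln, 2.84 for Dpp4, 2.54 for Fbln1, 2.21 for Has1 and 1.99 for Fbln5. The others were 5.47 for Pcsk6, 3.74 for Tmem151a, 3.52 for Ugt1a7c, 3.36 for Adgrd1 and 2.92 for Cpz, and the excess of Cyp26a1 was -1.74.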

How the results depend on the processing

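Other scalings (RLE, upper quartile), no filter on low counts and a minimum count of 30 kept the adult counts within 1.5 times, and the median log2 difference of all genes was 0.0364 with TMM and at most 0.0927, with upper quartile scaling. DESeq2 gave 625 rises and 186 falls in adults and 193 and 6 genes with a larger or smaller gate difference in adults. Fitting only the adult libraries gave 589 rises and 209 falls. Without the last library of both adult and young CD34Lo, an alternative chosen after seeing the data, there were 404 rises and 181 falls, and 114 and 2 genes by age. Without the filter 2 genes had the smaller difference in adults. Leaving out 1 library at a time gave 137 to 624 rises, 19 to 337 falls, and 25 to 147 and 1 to 5 genes by age. A replicate block on neighbouring library numbers left 145 rises and 9 falls, and 22 and 0 genes by age. The labels do not say whether neighbouring numbers came from the same animal. Within the 7 pairs the deviations from the group mean correlated at -0.23 to 0.23, and in adults at 0.13, -0.02 and 0.03. With so few libraries in a group, such correlations cannot tell whether the gates shared an animal.

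Of the 107 named genes called in adults, 61 stayed past the threshold in every omission of a library and 54 in every setting. Of the 36 named by age, 16 stayed in every omission and 8 in every setting. No called gene changed sign, while 66 values of 23 genes that were not called did, so the direction of these is not settled. With the replicate block the log2 differences that turned were Alas2 -1.29, Cdh5 -0.18, Cldn5 -0.24, Itgam -0.32, Laptm5 -0.055, Lum -0.24, Ly6a -0.51, Lyz2 -0.42, Myh1 -0.70, Myh11 -1.20, Myh4 0.22, Pcna -0.013, Pdgfra -1.16, Pecam1 -0.28, Pi16 -0.52, Ptprc -3.20, S100b -0.26 and Tyrobp -1.45. Without the last library of both CD34Lo groups they were Cdh5 -0.17, Cldn5 -0.17, Itgam -0.10, Laptm5 -0.31, Lum -0.28, Ly6a -0.47, Lyz2 -0.23, Myh11 -0.89, Pdgfra -1.13, Pecam1 -0.17, Pi16 -0.56, Ptprc -3.55 and S100b -0.20. Cdh19 turned to 0.034 with upper quartile scaling and 0.0046 with DESeq2. Over the omissions of 1 library, the log2 differences that turned ranged as follows: Alas2 -0.28 to 1.49, Calcr -0.13 to 0.19, Cdh15 -0.039 to 0.38, Cdh19 -0.71 to 0.73, Cdh5 -0.19 to 0.93, Cldn5 -0.17 to 0.88, Comp -0.094 to 0.92, Fgfr4 -0.011 to 0.36, Itgam -0.11 to 1.31, Laptm5 -0.33 to 2.85, Lum -0.29 to 0.78, Ly6a -0.48 to 0.97, Lyz2 -0.24 to 1.63, Myh1 -0.41 to 0.82, Myh11 -0.90 to 0.50, Myh4 -0.75 to 1.41, Pdgfra -1.14 to 0.67, Pecam1 -0.18 to 0.74, Pi16 -0.56 to 1.34, Ptprc -3.55 to 1.37, S100b -0.21 to 0.40. Leaving out any 1 of the 3 CD34Hi libraries lowered the adult counts, to 137 to 197 rises and 19 to 31 falls, and leaving out CD34Lo replicate 4 gave 185 and 31. The cause of the changes in counts was not tested. Depth limits genes of a few CPM, in adult libraries of 4157201 to 7586621 counts.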
